A study of Mus musculus with 6 samples.

Results

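Kinesins are motor proteins that walk along microtubules or take their ends apart. The 38 kinesin genes described here are those whose only annotated symbol begins with Kif and a digit, out of 19938 genes with a single symbol on the array. They were split by function into 11 mitotic kinesins (Kif2c, Kif4, Kif11, Kif14, Kif15, Kif18a, Kif18b, Kif20a, Kif20b, Kif22 and Kif23) and 27 other kinesins. The other kinesins mostly carry vesicles, organelles and RNA or work in cilia. For a gene with several transcript clusters (probe sets for one transcript region) the cluster with the highest mean over the 6 arrays stood for the gene. A gene was tested when that mean lay above 5.081 on the log2 scale, a level that 90% of 1194 odorant and pheromone receptor genes did not exceed. All 11 mitotic kinesins and 25 of the 27 other kinesins passed, and Kif27 and Kif2b, with means of 4.39 and 4.87, did not. The split is one of function and its rule used no value of these arrays, but it was made with earlier results of these data known.

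The arrays compared mouse embryonic fibroblasts (MEFs) of genotype Rb1L/L (3 cultures) with MEFs of genotype Rb1+/+ (3 cultures). All were taken from E13.5 embryos, grown to passage 4 in serum and harvested while proliferating, with no further treatment given in the labels. Rb1 encodes the retinoblastoma protein pRb, and the L allele changes the cleft with which pRb binds partners that carry an LXCXE motif. Because the allele changes the protein, the Rb1 signal does not check the genotype: it was 8.96, 8.85 and 8.99 in Rb1L/L cultures 1, 2 and 3, against 8.87, 8.61 and 8.99 in Rb1+/+ cultures 1, 2 and 3. The labels do not say whether the cultures of a genotype came from separate embryos, so p-values measure the spread between these cultures. Same-numbered cultures of both genotypes are spoken of as pairs in the study's design.

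In every cell cycle, mitotic kinesins push the spindle poles apart, move chromosomes, trim microtubule ends and build the structure at which the daughter cells separate. Many of their genes are switched on together late in the cycle, under elements near their starts that pRb-related complexes bind. Kinesins of transport do their work in cells that are not dividing as well.

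The mitotic kinesins lay higher in Rb1L/L MEFs and the other kinesins mostly lay slightly lower. In the test across all 15462 genes above the filter (limma, Benjamini-Hochberg adjusted p under 0.05), 4 of 11 mitotic kinesins rose in Rb1L/L cultures (Kif2c, Kif22, Kif18b and Kif20a) and 0 fell. Over all tested genes, 7.1% were called higher and 5.08% lower. Of the 25 other kinesins tested, 0 rose and 2 fell (Kif5b and Kif3a). At an unadjusted p under 0.05 limma gave 6 mitotic kinesins, each of them higher, and 8 other kinesins, each of them lower. At that threshold 14.4% of all tested genes were higher and 14.4% lower, 28.7% in all. The log2 fold change (Rb1L/L minus Rb1+/+) was positive for 11 of 11 mitotic kinesins, between 0.13 and 0.64 with a median of 0.34. It was negative for 21 of 25 other kinesins, between -0.49 and 0.08 with a median of -0.086. The median over all tested genes was -0.021, with 8719 of 15462 negative. No test was made of the difference between the mitotic and the other kinesins as groups, whose members were picked by function with earlier results of these data known. In bulk cultures, fewer cells of a type and less RNA per cell cannot be told apart.

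**Figure D1:**
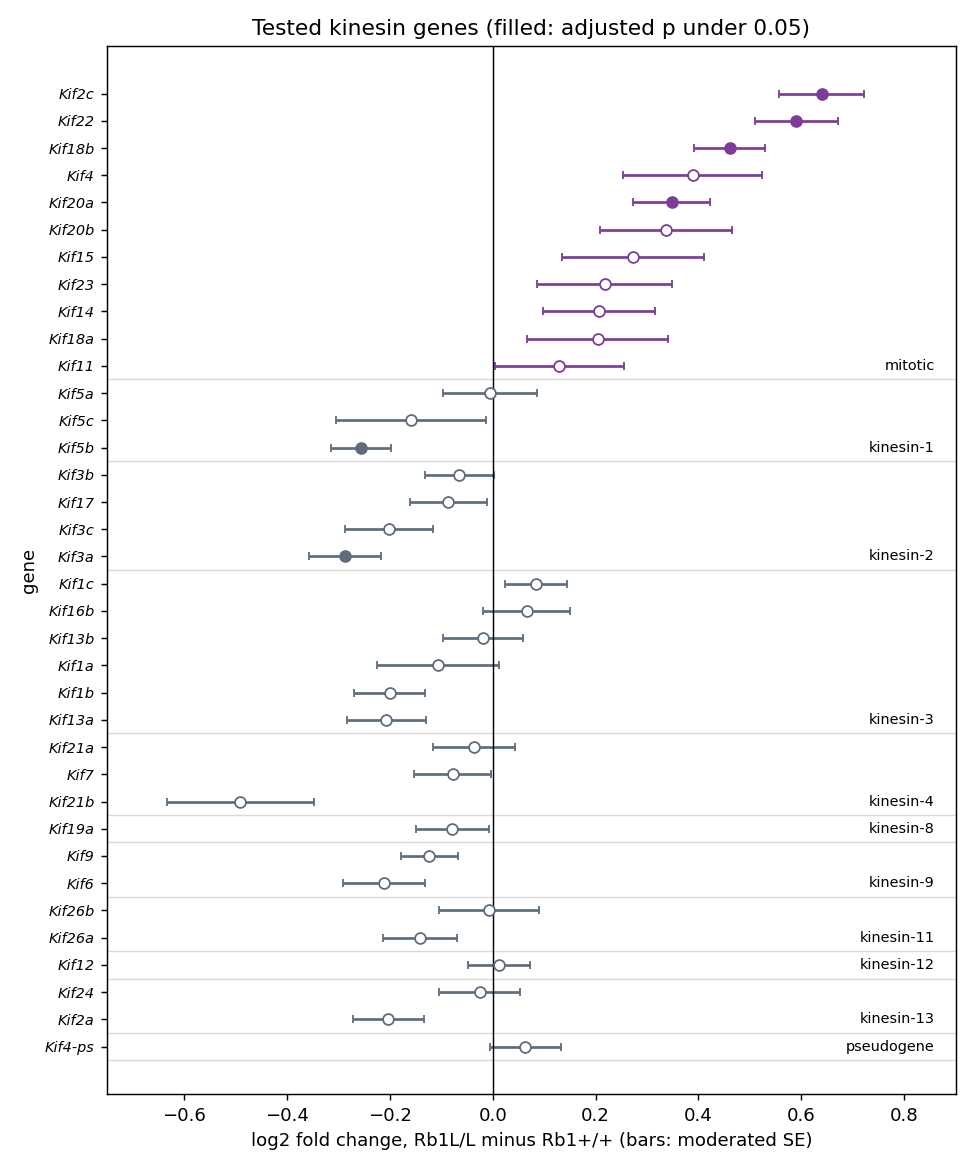
Log2 fold change of the 36 tested kinesin genes (x axis, Rb1L/L minus Rb1+/+), mitotic kinesins at the top and the others by kinesin family below. Points are limma estimates, bars are their moderated standard errors, and filled points have an adjusted p under 0.05. The 11 mitotic kinesins lie right of 0, and 21 of the 25 others lie left of it.

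The promoters are shown because most of the mitotic kinesins searched carry letters around their starts that most of the others do not. The part of these letters in the fold changes was not tested. RefSeq windows of 300 bases (250 before the annotated start, build GRCm38.p6) were used for 10 mitotic and 21 other kinesins. No window was searched for Kif20a, Kif13b, Kif19a, Kif21b, Kif4-ps, Kif5a and Kif5b. The motif counts therefore leave out Kif20a, which rose in Rb1L/L cultures, and Kif5b, which fell. Both strands were searched for the cell cycle genes homology region or CHR (TTTGAA or TTCGAA), which MuvB complexes bind in late cell cycle genes. They were also searched for the CCAAT box of NF-Y and for E2F sites (the letters TTTGGCG, the letters TTTCCCG, the letters TTTCGCG or the letters TTTGCCG). In the windows below, running 5′ to 3′ on the gene's strand from 250 bases before the annotated start (base 0) to base 29, capitals mark these letters on either strand. Kif22 (minus strand, chr7:127042391-127042670) and Kif18b (minus strand, chr11:102925095-102925374) rose in Rb1L/L cultures. Kif4 (plus strand, chrX:100625815-100626094), Kif11 (plus strand, chr19:37376132-37376411) and Kif15 (plus strand, chr9:122950831-122951110) are mitotic kinesins that did not pass the test. Kif3a (plus strand, chr11:53567119-53567398) is the other kinesin that fell and whose window was searched.
Kif22: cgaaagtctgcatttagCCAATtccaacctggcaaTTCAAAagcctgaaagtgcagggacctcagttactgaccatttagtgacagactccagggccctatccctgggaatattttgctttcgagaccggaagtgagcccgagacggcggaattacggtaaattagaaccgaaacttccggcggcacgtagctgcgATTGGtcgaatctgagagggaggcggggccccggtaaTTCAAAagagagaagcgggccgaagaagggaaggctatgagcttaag
Kif18b: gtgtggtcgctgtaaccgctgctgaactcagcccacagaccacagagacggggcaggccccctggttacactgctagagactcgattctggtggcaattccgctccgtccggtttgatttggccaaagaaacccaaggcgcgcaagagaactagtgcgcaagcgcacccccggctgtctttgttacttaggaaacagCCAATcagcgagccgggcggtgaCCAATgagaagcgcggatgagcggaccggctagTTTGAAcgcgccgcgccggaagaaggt
Kif4: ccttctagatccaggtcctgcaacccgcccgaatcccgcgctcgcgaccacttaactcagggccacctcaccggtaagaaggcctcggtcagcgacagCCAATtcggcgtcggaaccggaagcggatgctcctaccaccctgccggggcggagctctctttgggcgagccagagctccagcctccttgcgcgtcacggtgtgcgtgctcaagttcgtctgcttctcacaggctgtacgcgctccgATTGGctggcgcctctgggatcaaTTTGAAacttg
Kif11: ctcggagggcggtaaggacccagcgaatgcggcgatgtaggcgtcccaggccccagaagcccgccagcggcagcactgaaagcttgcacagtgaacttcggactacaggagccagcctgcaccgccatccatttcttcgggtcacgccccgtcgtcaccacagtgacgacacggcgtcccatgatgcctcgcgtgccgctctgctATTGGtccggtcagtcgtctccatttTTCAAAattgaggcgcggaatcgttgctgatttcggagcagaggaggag
Kif15: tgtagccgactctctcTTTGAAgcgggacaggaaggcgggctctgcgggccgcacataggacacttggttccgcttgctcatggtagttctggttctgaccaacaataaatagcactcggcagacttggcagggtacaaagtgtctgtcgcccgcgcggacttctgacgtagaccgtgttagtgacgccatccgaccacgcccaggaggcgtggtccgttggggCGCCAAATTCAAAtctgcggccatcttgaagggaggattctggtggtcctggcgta
Kif3a: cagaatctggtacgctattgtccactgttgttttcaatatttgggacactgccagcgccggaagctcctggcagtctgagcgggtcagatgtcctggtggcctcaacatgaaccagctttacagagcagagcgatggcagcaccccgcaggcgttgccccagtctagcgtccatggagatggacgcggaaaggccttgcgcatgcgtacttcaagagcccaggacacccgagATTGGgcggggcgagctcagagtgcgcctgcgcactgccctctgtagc

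A CHR match lay in the windows of 9 of 10 mitotic kinesins, the exception being Kif18a. It lay in those of 4 of 21 other kinesins (Kif1a, Kif24, Kif26b and Kif27), against 5854 of 27025 genes with a window (21.7%), and 19.2% of all 32851 windows of this length held it. In 7 of the 9 mitotic kinesins a match stood within 20 bases of the annotated start: its first base was at -19 in Kif11 and Kif15, at -17 in Kif22, at 2 in Kif23, at 3 in Kif18b, at 7 and 13 in Kif20b and at 19 in Kif4. In Kif2c it was at -103 and in Kif14 at -228. Among the other kinesins, matches began at -9 in Kif26b, at -26 in Kif24, at -44 in Kif1a and at -191, -89 and -73 in Kif27. The share of all genes with a match within 20 bases of the start was not counted. The starts used for Kif2c and Kif14 lay 3852 and 1547 bases inside the outer limit of the annotated gene, and whether MEFs use these starts was not tested. The Kif3a start lay 1668 bases inside it, and those of the other 5 windows printed lay at most 47 bases inside. A CHR match was present in Kif2c, Kif22 and Kif18b, which rose, and also in Kif11, which had the smallest change of the mitotic kinesins.

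CCAAT was found in 6 of 10 mitotic and 8 of 21 other windows, against 41.1% of all genes and 37.4% of all windows. E2F letters were found in Kif15 and Kif18a among the mitotic kinesins and in Kif1b among the others, against 7.65% of all genes and 6.7% of all windows. In Kif15 the E2F letters ran directly into the CHR letters, and no 2 matches in a kinesin window shared a base. These are matches of letters and not measured binding sites.

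**Figure D2:**
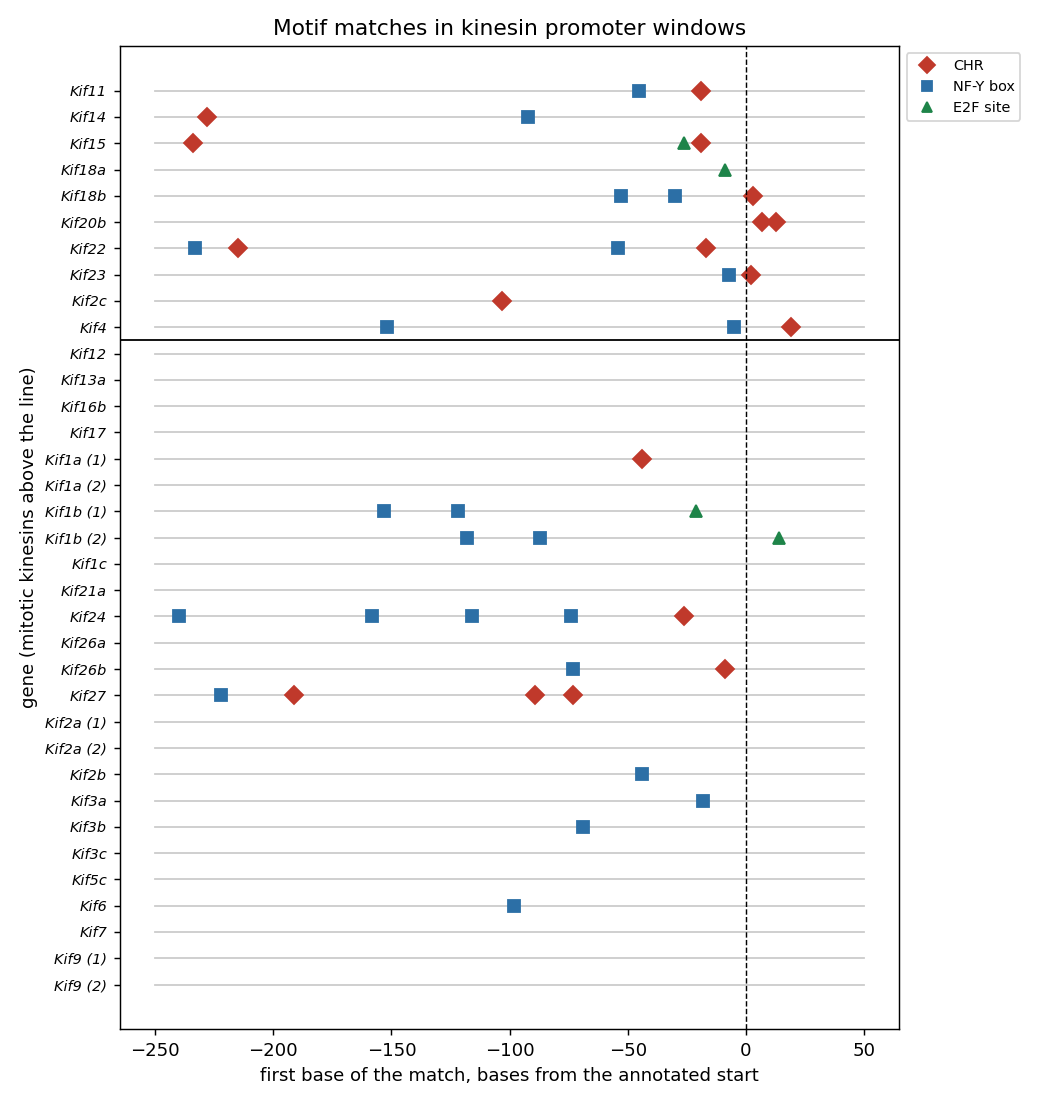
Position of each motif match (x axis, first base of the match counted from the annotated start, dashed line) in the promoter windows of kinesin genes, one row per window, mitotic kinesins above the black line. Red diamonds are CHR letters, blue squares CCAAT and green triangles E2F letters. CHR matches lie in 9 of 10 mitotic rows, and in 7 of them within 20 bases of the start, as also in the row of Kif26b below the line.

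The members that act on chromosomes and microtubule ends included the 3 largest rises among kinesins. Kif2c, which depolymerises microtubules at kinetochores and corrects wrong attachments, had signals of 9.29, 9.42 and 9.31 in Rb1L/L cultures 1, 2 and 3, against 8.55, 8.85 and 8.70 in Rb1+/+ cultures 1, 2 and 3. The groups did not overlap, and the log2 fold change was 0.64 ± 0.08 (moderated SE, 1.56-fold, limma adjusted p = 0.00477). Kif18b, a motor of growing astral microtubule ends, had 9.93, 9.96 and 9.90 in Rb1L/L cultures, against 9.34, 9.54 and 9.53 in Rb1+/+ cultures. It rose by 0.46 ± 0.07 (1.38-fold, limma adjusted p = 0.00779), again with no overlap. Its relative Kif18a, which damps the movements of chromosomes at the spindle centre, had 7.67, 7.66 and 7.88 in Rb1L/L cultures, against 7.22, 7.58 and 7.80 in Rb1+/+ cultures. These groups overlapped, and the change of 0.20 ± 0.14 did not pass (limma adjusted p = 0.370).

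The chromokinesins Kif22 and Kif4 bind chromosome arms, and Kif4 also works with condensin in shaping chromosomes. Kif22 had signals of 8.85, 8.98 and 8.77 in Rb1L/L cultures 1, 2 and 3, against 8.18, 8.40 and 8.26 in Rb1+/+ cultures 1, 2 and 3. Every Rb1L/L culture lay above every Rb1+/+ culture, and the gene rose by 0.59 ± 0.08 (1.51-fold, limma adjusted p = 0.00543). Kif4, which lies on the X chromosome, had 8.62, 8.73 and 8.59 in Rb1L/L cultures, against 7.91, 8.46 and 8.41 in Rb1+/+ cultures. The Kif4 groups did not overlap either, but Rb1+/+ culture 1 lay far below the other two and the change of 0.39 ± 0.14 did not pass (limma adjusted p = 0.101, and 0.0508 with the culture number as a block). Kif4-ps, a transcribed pseudogene on chromosome 12 that resembles Kif4, had 5.23, 5.41 and 5.28 in Rb1L/L cultures, against 5.18, 5.31 and 5.24 in Rb1+/+ cultures. Its signal lay just above the filter, and whether its probes also bind Kif4 transcripts was not tested.

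Neither of the motors that separate the spindle poles passed the test. Kif11, the motor that slides opposed microtubules apart, had 9.36, 9.47 and 9.43 in Rb1L/L cultures, against 8.96, 9.46 and 9.43 in Rb1+/+ cultures. Cultures 2 and 3 of both genotypes were alike for Kif11, and the change was 0.13 ± 0.13 with an interval from -0.16 to 0.42 (95%, limma adjusted p = 0.541). Kif15, which can take over from Kif11 in keeping the spindle bipolar, had 8.04, 8.10 and 7.98 in Rb1L/L cultures, against 7.42, 7.84 and 8.03 in Rb1+/+ cultures. The Kif15 groups overlapped through culture 3, and its change was 0.27 ± 0.14 (limma adjusted p = 0.234).

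Among the kinesins of the central spindle and cell separation, Kif20a passed the test. Kif20a, which moves Aurora B and its partners to the central spindle, had 10.57, 10.66 and 10.55 in Rb1L/L cultures, against 10.10, 10.34 and 10.28 in Rb1+/+ cultures. The groups did not overlap, and the rise was 0.35 ± 0.08 (1.27-fold, limma adjusted p = 0.0245). Kif20b, needed late in cytokinesis, had 7.48, 7.54 and 7.55 in Rb1L/L cultures, against 6.86, 7.43 and 7.27 in Rb1+/+ cultures. It did not overlap between groups either, and its change of 0.34 ± 0.13 did not pass (limma adjusted p = 0.125). Kif23, the motor subunit of centralspindlin, had 9.71, 9.83 and 9.84 in Rb1L/L cultures, against 9.24, 9.73 and 9.75 in Rb1+/+ cultures. Its groups overlapped, since Rb1L/L culture 1 lay below Rb1+/+ cultures 2 and 3, and its change was 0.22 ± 0.13 (limma adjusted p = 0.315). Kif14, which brings citron kinase to the midbody, had 7.39, 7.66 and 7.79 in Rb1L/L cultures, against 7.27, 7.52 and 7.42 in Rb1+/+ cultures. This overlap came from Rb1L/L culture 1, and the change was 0.21 ± 0.11 (limma adjusted p = 0.249).

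**Figure D3:**
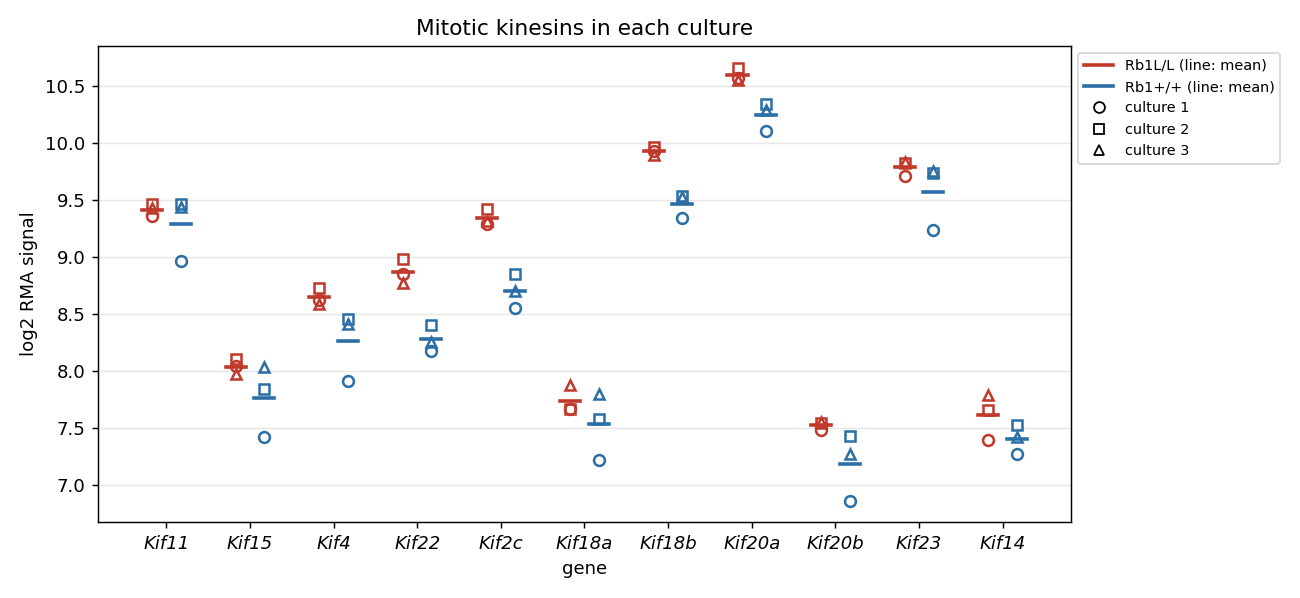
Log2 RMA signal (y axis) of the 11 mitotic kinesins in each culture, Rb1L/L in red on the left and Rb1+/+ in blue on the right of each gene, with the symbol giving the culture number and the line the group mean. Rb1+/+ culture 1 (blue circle) is the lowest point for all 11 genes, and the groups do not overlap for 6 of them.

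In all, the groups of 6 of the 11 mitotic kinesins did not overlap (Kif2c, Kif22, Kif18b, Kif20a, Kif4 and Kif20b), each higher in Rb1L/L, against 16.2% of all tested genes. With the culture number as a block the same 4 mitotic kinesins had an adjusted p under 0.05, while 7.99% of all genes were called higher and 6.45% lower. The size of the difference depended on the pair. The median difference of the mitotic kinesins was 0.59 between cultures 1, 0.26 between cultures 2 and 0.26 between cultures 3. They were higher in Rb1L/L for 11, 11 and 9 of the 11 genes, the exceptions in pair 3 being Kif11 and Kif15. Of all tested genes, 46.44%, 45.92% and 45.45% were higher in Rb1L/L in pairs 1, 2 and 3. The other kinesins had median differences of -0.12, -0.08 and -0.14 in pairs 1, 2 and 3.

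Rb1+/+ culture 1 was the lowest of the 6 arrays for all 11 mitotic kinesins, for 3 of the 25 other kinesins and for 17.8% of all tested genes. The mean log2 signal over the mitotic kinesins was 8.81, 8.91 and 8.87 in Rb1L/L cultures 1, 2 and 3, against 8.28, 8.65 and 8.63 in Rb1+/+ cultures 1, 2 and 3. Without Rb1+/+ culture 1 the median change of the mitotic kinesins was 0.175 in place of 0.34, Kif11 stood at -0.03, and Kif2c, Kif22 and Kif18b were still called. Kif20a was not, and it was also lost without Rb1L/L culture 1, Rb1L/L culture 2 or Rb1+/+ culture 3. Without both cultures numbered 1, limma called 0 mitotic kinesins and 92 genes in all. The changes were then 0.59 for Kif2c, 0.55 for Kif22, 0.40 for Kif18b and 0.29 for Kif20a, with adjusted p of 0.0619, 0.084, 0.0856 and 0.148. Cultures 1 of both genotypes were male by their transcripts: Xist was at 4.79 in Rb1L/L culture 1 and 5.13 in Rb1+/+ culture 1, and between 11.44 and 11.61 in the other 4. The Y-linked Eif2s3y was at 8.47 and 8.36 in the same cultures and at most 3.63 elsewhere. The part of sex in the low signals of Rb1+/+ culture 1 was not tested.

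**Figure D4:**
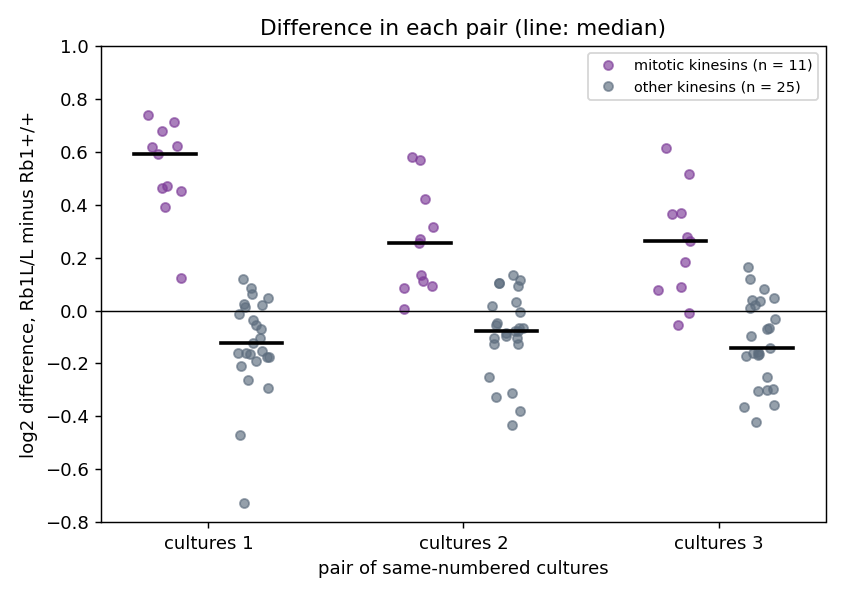
Log2 difference (y axis, Rb1L/L minus Rb1+/+) of each tested kinesin gene between same-numbered cultures, mitotic kinesins (n = 11) left and other kinesins (n = 25) right in each pair, with the black line at the median. The medians of the mitotic kinesins are 0.59, 0.26 and 0.26 and those of the others -0.12, -0.08 and -0.14.

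Some markers of dividing cells were higher beside the mitotic kinesins. Of 7 tested proliferation genes, 3 rose in Rb1L/L cultures and 0 fell, and with the culture number as a block 4 rose. Over all tested genes 7.1% were called higher, and 7.99% with the block. The 3 were Cdk1, the kinase that drives entry into mitosis (0.41 ± 0.07, limma adjusted p = 0.0113), and Mcm6 and Mcm7 of the replicative helicase (0.83 and 0.64). The block added Top2a, the topoisomerase of mitotic chromosomes, at 0.37 ± 0.11 (limma adjusted p = 0.0259 with the block and 0.0631 without). Mki67, present throughout the cycle of dividing cells, had a log2 fold change of 0.12 ± 0.08 (limma adjusted p = 0.372). The S-phase and G2 cyclin Ccna2 had one of -0.01, and Pcna one of 0.01 ± 0.07 (limma adjusted p = 0.913). The mean signal over the 7 genes was between 10.77 and 10.86 in Rb1L/L cultures and between 10.34 and 10.57 in Rb1+/+ cultures, and Rb1+/+ culture 1 was lowest for 6 of them. Their part in the kinesin result was not tested.

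The proteins that work with the mitotic kinesins were followed in a list of 20 genes. Of these, 8 rose, 0 fell, and the median change was 0.34. With the culture number as a block 13 rose (Aurkb, Cit, Hmmr, Nuf2 and Prc1 added). The share of all tested genes called higher was 7.1% without the block and 7.99% with it. Incenp, the scaffold of the chromosomal passenger complex that Kif20a carries, had 8.92, 9.08 and 8.75 in Rb1L/L cultures, against 8.49, 8.42 and 8.33 in Rb1+/+ cultures. It rose by 0.50 ± 0.09 (limma adjusted p = 0.0139), with no overlap, and Rb1+/+ culture 1 was not its lowest array. Birc5 of the same complex rose by 0.49 ± 0.10 (limma adjusted p = 0.0206). Aurka, the spindle pole kinase, rose by 0.52 ± 0.09 (limma adjusted p = 0.0144), and Plk1, which binds Kif20a, by 0.38 ± 0.09 (limma adjusted p = 0.0276). Racgap1 and Prc1 of this list were added to the genes named after their values were seen, as the direct partners of Kif23 and Kif4. Racgap1 rose by 0.41 ± 0.10 (limma adjusted p = 0.0353), while Prc1, at 0.36 ± 0.11, passed with the block (adjusted p = 0.0238) and not without it (0.0635). Rb1+/+ culture 1 was the lowest array for 17 of the 20 partners. In the 6 fits without 1 array, Incenp and Aurka were called in 5, Birc5 in 4, and Plk1 and Racgap1 in 1.

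Of 4 tested motors whose names fall outside the symbol rule, 0 passed in limma in either direction, and 1 had an unadjusted p under 0.05 (Stard9), against 28.7% of all tested genes. Cenpe, the mitotic motor that brings chromosomes to the spindle centre, had 8.70, 8.73 and 8.82 in Rb1L/L cultures, against 8.30, 8.84 and 8.88 in Rb1+/+ cultures. Its change was 0.08 ± 0.14 (limma adjusted p = 0.766), with Rb1L/L lying higher in pair 1 alone. Stard9, a motor of the centrosome, had a log2 fold change of -0.24 ± 0.07 (limma adjusted p = 0.051). The Stard9 groups did not overlap, with Rb1L/L lower, as for 18.3% of all tested genes. Kifc2 and Kifc3, motors that walk the other way along microtubules, had log2 fold changes of -0.02 and 0.02. The minus-end motor Kifc1 shared its cluster with Kifc5b and was not analysed here.

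Among the other kinesins, the 2 that fell are parts of the main cargo motors. Kif5b, the heavy chain of conventional kinesin (kinesin-1) in most tissues, had 11.05, 10.98 and 10.93 in Rb1L/L cultures 1, 2 and 3, against 11.21, 11.29 and 11.23 in Rb1+/+ cultures 1, 2 and 3. The groups were clear of each other, and the gene fell by 0.26 on the log2 scale (SE 0.06, limma adjusted p = 0.0291). Its neuronal relatives gave no call: Kif5c had a log2 fold change of -0.16 ± 0.15 and Kif5a one of -0.0049 ± 0.092, with overlapping groups. Leaving out any 1 array took Kif5b out of the calls, with adjusted p between 0.06 and 0.0919 and the change between -0.31 and -0.23 in all fits with arrays left out.

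Kif3a, a subunit of the heterotrimeric kinesin-2 that builds cilia and carries cargo, had 7.15, 6.93 and 7.05 in Rb1L/L cultures, against 7.27, 7.36 and 7.36 in Rb1+/+ cultures. It fell by 0.29 on the log2 scale (SE 0.07, limma adjusted p = 0.0364), and no Rb1L/L culture reached the lowest Rb1+/+ culture. Its partner motor Kif3b had 8.15, 8.01 and 8.10 in Rb1L/L cultures, against 8.12, 8.09 and 8.24 in Rb1+/+ cultures, overlapping, with a change of -0.06 ± 0.07 (limma adjusted p = 0.569). The third subunit, the cargo-binding Kifap3, had 8.69, 8.67 and 8.82 in Rb1L/L cultures, against 9.004, 8.994 and 9.08 in Rb1+/+ cultures. Kifap3 fell by 0.30 on the log2 scale (SE 0.06, limma adjusted p = 0.0238), and it was called in 2 of the 6 fits without 1 array. Of all tested genes 5.08% were called lower. The alternative partner Kif3c had 7.68, 7.82 and 7.86 in Rb1L/L cultures, against 8.15, 7.89 and 7.93 in Rb1+/+ cultures, with a change of -0.20 ± 0.09 that did not pass (limma adjusted p = 0.162). Kif17, which runs in cilia and dendrites, had a log2 fold change of -0.09 ± 0.08. Kif3a was lost from the calls whenever 1 array was left out (adjusted p between 0.0523 and 0.112) and when arrays were centred on their medians (0.0504).

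**Figure D5:**
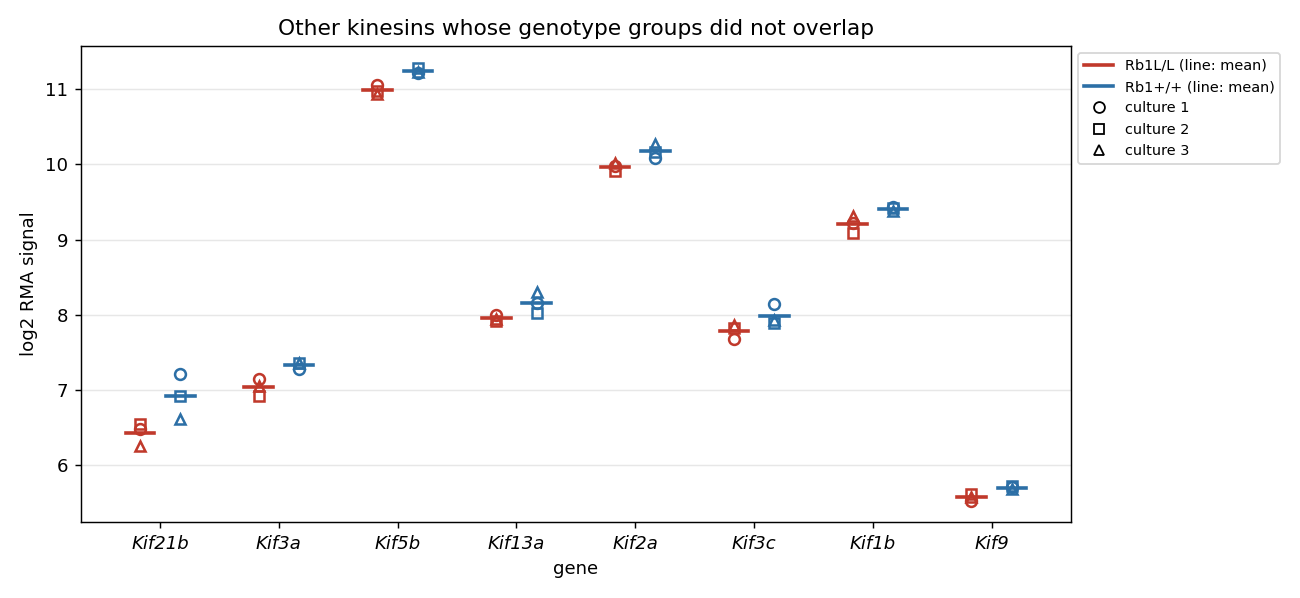
Log2 RMA signal (y axis) of the 8 other kinesins whose genotype groups did not overlap, in each culture, Rb1L/L in red on the left and Rb1+/+ in blue on the right, with the symbol giving the culture number and the line the group mean. All 8 lie lower in Rb1L/L, with Kif5b and Kif3a past the test's threshold.

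The groups of 8 of the 25 other kinesins did not overlap, each lower in Rb1L/L (Kif21b, Kif3a, Kif5b, Kif13a, Kif2a, Kif3c, Kif1b and Kif9), against 18.3% of all tested genes. Of the 25, 12 were lower in Rb1L/L in all 3 pairs and 3 were higher in all 3 (Kif1c, Kif16b and Kif4-ps). Over all 15462 tested genes, 4543 were lower in all 3 pairs and 3554 were higher. Kif9, a motor of motile cilia, had 5.53, 5.62 and 5.58 in Rb1L/L cultures, against 5.71, 5.72 and 5.68 in Rb1+/+ cultures, a change of -0.12 ± 0.05 that did not pass (limma adjusted p = 0.181). The other kinesin-9, Kif6, had a log2 fold change of -0.21 ± 0.08 (limma adjusted p = 0.121). Kif26a and Kif26b of kinesin-11, which lack the usual motor activity, had log2 fold changes of -0.14 ± 0.07 and -0.0079 ± 0.097.

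Several mitotic kinesins have relatives of the same kinesin family outside the mitotic group. Of 13 such genes tested, limma called 0 in either direction without the block, and 4 had an unadjusted p under 0.05, each lower in Rb1L/L. At that threshold 14.4% of all tested genes were lower, and 28.7% passed in either direction. Kif2a, the kinesin-13 relative of Kif2c that trims microtubule ends in neurons and at spindle poles, had 9.97, 9.91 and 10.02 in Rb1L/L cultures, against 10.08, 10.16 and 10.27 in Rb1+/+ cultures. The Kif2a groups did not overlap, with Rb1L/L lower, opposite to Kif2c, and the change of -0.20 ± 0.07 did not pass (limma adjusted p = 0.0914). Kif24, a kinesin-13 of the centriole, had 6.70, 6.82 and 6.63 in Rb1L/L cultures, against 6.61, 6.82 and 6.79 in Rb1+/+ cultures, overlapping. Kif2b, the remaining kinesin-13, was below the filter at 4.70, 5.05 and 4.91 in Rb1L/L cultures, against 4.83, 4.92 and 4.82 in Rb1+/+ cultures. In kinesin-8, Kif19a, which sets the length of cilia, had 6.63, 6.61 and 6.42 in Rb1L/L cultures, against 6.65, 6.66 and 6.59 in Rb1+/+ cultures. Kif19a lay lower in Rb1L/L in each pair, the groups overlapped, and its change was -0.08 ± 0.07 (limma adjusted p = 0.514), against 0.46 for Kif18b. In kinesin-12, Kif12 had 5.60, 5.73 and 5.66 in Rb1L/L cultures, against 5.63, 5.69 and 5.62 in Rb1+/+ cultures, and it showed no order between the genotypes.

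The kinesin-4 relatives of Kif4 gave the largest negative change. Kif21b, a motor of dendrites and immune cells, had 6.48, 6.54 and 6.25 in Rb1L/L cultures, against 7.21, 6.92 and 6.62 in Rb1+/+ cultures. All 3 Rb1L/L cultures lay below all 3 Rb1+/+ cultures, and the change of -0.49 ± 0.14 passed with the culture number as a block (adjusted p = 0.0145) but not without it (0.0619). Kif21a, which in humans is mutated in a disorder of eye movement, had 6.71, 6.67 and 6.69 in Rb1L/L cultures, against 6.78, 6.56 and 6.85 in Rb1+/+ cultures. Kif7, a regulator of Hedgehog signalling at the cilium tip, had 7.09, 7.06 and 7.09 in Rb1L/L cultures, against 7.28, 7.18 and 7.01 in Rb1+/+ cultures. Both overlapped between the genotypes, with adjusted p of 0.802 for Kif21a and 0.539 for Kif7 in limma. Kif27, below the filter, had 4.30, 4.52 and 4.43 in Rb1L/L cultures, against 4.41, 4.45 and 4.22 in Rb1+/+ cultures.

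Of the 6 transport kinesins of kinesin-3, the family of Kif14, 0 passed the test in limma. An unadjusted limma p under 0.05 was found for 2, each lower in Rb1L/L. Of all tested genes 14.4% were lower at that threshold, and 28.7% passed in either direction. Kif1b, a carrier of mitochondria and synaptic vesicle precursors, had 9.22, 9.09 and 9.32 in Rb1L/L cultures, against 9.43, 9.42 and 9.38 in Rb1+/+ cultures. Kif13a, which moves recycling endosomes, had 7.998, 7.922 and 7.942 in Rb1L/L cultures, against 8.16, 8.03 and 8.30 in Rb1+/+ cultures. Both were lower in Rb1L/L without overlap, by -0.20 ± 0.07 (limma adjusted p = 0.0973) and -0.21 ± 0.08 (limma adjusted p = 0.117). Kif1a, the axonal vesicle motor, had 9.97, 9.77 and 10.14 in Rb1L/L cultures, against 10.23, 9.85 and 10.12 in Rb1+/+ cultures. Kif13b, which binds Dlg scaffold proteins, had 6.73, 6.93 and 6.73 in Rb1L/L cultures, against 6.71, 6.83 and 6.90 in Rb1+/+ cultures. These groups overlapped, and culture 2 was the lowest of each genotype for Kif1a. Kif1c, which moves dense-core vesicles and integrins, had 8.58, 8.43 and 8.51 in Rb1L/L cultures, against 8.46, 8.42 and 8.40 in Rb1+/+ cultures. Kif16b, a motor of early endosomes, had 7.65, 7.59 and 7.44 in Rb1L/L cultures, against 7.63, 7.46 and 7.39 in Rb1+/+ cultures. Both lay slightly higher in Rb1L/L in each pair and overlapped between the groups, with changes of 0.08 ± 0.06 and 0.07 ± 0.08.

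Of 13 tested adaptors and light chains that tie kinesins to cargo, 0 rose and 1 fell (Kifap3, above), and the median change was -0.092. For this list, dynein and the tubulins, the shares of all tested genes were 7.1% higher and 5.08% lower. With the block they were 7.99% and 6.45%. With the culture number as a block, Trak1, a mitochondrial adaptor of Kif5b, fell by 0.35 on the log2 scale (adjusted p = 0.019), and Fez1, a kinesin-1 adaptor, rose by 0.24 (adjusted p = 0.0398). Both belong to the list and were added to the genes named after their values were seen. Of 19 tested parts of cytoplasmic dynein and dynactin, the motor that runs opposite to most kinesins, 1 rose and 3 fell, with a median of -0.050. Nde1, which recruits dynein to mitotic kinetochores and centrosomes, had 9.42, 9.40 and 9.32 in Rb1L/L cultures, against 9.05, 9.09 and 8.96 in Rb1+/+ cultures. It rose by 0.35 ± 0.06 without overlap (limma adjusted p = 0.0129). Pafah1b1 (Lis1), the partner of Nde1, fell by 0.27 (adjusted p = 0.0178), the light chain Dynlt3 by 0.34 (adjusted p = 0.021) and the dynactin subunit Dctn6 by 0.23 (adjusted p = 0.0472, and 0.0501 with the block). Of 13 tested tubulins, 2 rose and 1 fell with a median of 0.025, and with the block 1 rose and 2 fell. Tubd1, a centriolar tubulin, rose by 0.31 ± 0.06 (limma adjusted p = 0.0194), and Tubg1, which nucleates microtubules, rose by 0.23 ± 0.06 (adjusted p = 0.0495, and 0.0606 with the block). Tubb3, the beta tubulin typical of neurons, had 7.08, 7.04 and 6.85 in Rb1L/L cultures, against 7.59, 7.59 and 7.22 in Rb1+/+ cultures, and it fell by 0.48 (adjusted p = 0.0309). With the block Tubb4a also fell, by 0.42 (adjusted p = 0.0198, and 0.171 without the block). In the 6 fits without 1 array, Nde1 was called in 4, Pafah1b1 in 3, Kifap3, Dynlt3 and Tubd1 in 2, Tubb3 and Tubg1 in 1 and Dctn6 in 0.

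Several of the other kinesins are known from neurons and cilia, so markers of other cells were read beside them. All 12 fibroblast markers were above the filter, with mean signals between 10.98 and 11.03 in Rb1L/L cultures and between 11.07 and 11.18 in Rb1+/+ cultures; 2 fell (Col3a1 and Lum) and 0 rose. With the block Dcn fell as well (-0.31, limma adjusted p = 0.0346 with the block and 0.113 without). Beside these marker counts, 7.1% of all tested genes were called higher and 5.08% lower, or 7.99% and 6.45% with the block. Of 12 neural markers 9 were above the filter (Dcx, Nefl and Nefm were not), 2 fell (Tubb3 and the radial glia marker Fabp7) and 0 rose. The log2 fold change was negative for 6 of the 9 and positive for 3. The largest positive one was that of Gap43, 0.37 ± 0.13, which did not pass (limma adjusted p = 0.112). The mean signal of the 12 was between 6.67 and 6.86 in Rb1L/L cultures and between 6.89 and 6.94 in Rb1+/+ cultures. Of 8 ciliated and epithelial markers 4 were above the filter (Tekt1, Dnah5, Ccdc39 and Epcam were not) and 0 passed the test, with mean signals between 5.70 and 5.78 in Rb1L/L cultures and between 5.77 and 5.82 in Rb1+/+ cultures. All 8 macrophage markers were above the filter, 2 rose (Adgre1 and C1qa) and 1 fell (Cx3cr1), with mean signals between 7.52 and 7.97 in Rb1L/L cultures and between 7.26 and 7.77 in Rb1+/+ cultures. The part of these cells in the kinesin values was not tested.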

How the data were processed

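Total RNA of 6 MEF cultures was labelled with biotin and read on Affymetrix arrays, per the labels. The authors deposited log2 values per transcript cluster, made with RMA, with Partek as a further tool, per the submitters' processing notes. Tool versions were not given in the sources used here. Since RMA forces a common distribution on the arrays, it hides shifts of the whole transcriptome, and it shrinks differences of dim clusters. Array medians ran from 6.393 to 6.449, and correlations between arrays over all 35556 clusters were 0.9941 to 0.9959 within and 0.9917 to 0.9948 between genotypes. An array has no read depth, and the number of arrays limits the precision.

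Of the clusters 21789 carried 1 symbol, 1621 several and 12146 none, and 21698 matched RefSeq. They stood for 19938 genes, 999 of them with several clusters, and 15462 lay above the filter. The genotypes were tested by lmFit and eBayes of limma 3.58.1 (R 4.3.3) without a block, with Benjamini-Hochberg adjustment over every tested gene and a threshold of 0.05. The culture numbers pair the samples: the design speaks of pairs, and arrays of one number departed from their group means together (r = 0.30, 0.24 and 0.30 over genes, or 0.12, 0.20 and 0.26 with X and Y genes left out). Results of the blocked fit stand beside the calls that it changes. On simulated data for this comparison over 15462 genes, 69% of 100 genes changed 1.3-fold and 97% of 100 changed 1.5-fold were recovered, with 11 false calls. The simulated noise was independent for each gene, with no deviation shared within an array or pair. Recovery under such shared deviations was not tested. Promoter windows came from RefSeq (GRCm38.p6), and windows were printed only to base 29.

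Every kinesin gene is named. Values in every array are given for mitotic members, for members past the threshold with or without the block, and for family neighbours of mitotic members. From the companion lists, up to 4 genes of smallest p past the threshold are named. The members and lists were chosen with earlier results of these data known. Alternatives were the replicate block, trended robust variances, array weights, median centring, quantile normalization, no filter, a filter at 6, the mean of clusters, and leaving out arrays or pairs.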

Additional observations from a re-analysis of the deposited data

How the results depend on the processing

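The count of 4 mitotic kinesins higher and 0 lower was the same under all 8 processing alternatives run, with a median between 0.3157 and 0.3588. Fits without 1 array gave 3 to 4 mitotic kinesins higher (median 0.1751 to 0.3976), 0 to 1 other kinesins lower (median -0.1144 to -0.0799), 1 to 17 companion genes called against 16, and 622 to 1441 genes called in all against 1883. Without pairs 1, 2 and 3 in turn, 0, 3 and 3 mitotic kinesins were higher, 0 other kinesins were lower each time, 0, 1 and 2 companion genes were called, and 92, 467 and 460 genes in all. The median of the other kinesins was then -0.0813, -0.1125 and -0.1084. These fits have fewer samples. Under median centring 1 other kinesin was lower and their median was -0.0646. The replicate block and array weights each gave 3 (Kif21b added), and the stricter filter, which leaves 20 of the 25, a median of -0.1244. The block called 2232 genes in all, 22 of them companions, and changed no other kinesin call. The kinesin genes that changed sign had main estimates between -0.0365 (Kif21a) and 0.1296 (Kif11). Kif12 stood at -0.0029 with array weights, and under median centring Kif13b stood at 0.0026, Kif26b at 0.0138 and Kif5a at 0.0168 (0.0149 after quantile normalization). Without 1 array, the ranges crossing 0 were -0.0312 to 0.2165 for Kif11, -0.0218 to 0.0446 for Kif12, -0.0835 to 0.0244 for Kif13b, -0.1215 to 0.0236 for Kif21a, -0.0908 to 0.0175 for Kif24, -0.0836 to 0.0717 for Kif26b and -0.0674 to 0.0778 for Kif5a. Without pair 1, Kif11 stood at -0.0015 and Kif26b at 0.1344, and without pair 2 Kif5a stood at 0.0153. Without pair 3, Kif12 stood at -0.0012, Kif13b at 0.0568, Kif21a at 0.0236, Kif24 at 0.041 and Kif5a at 0.0079. The cause of these shifts was not tested.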

Other observations

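A second transcript cluster was present for 6 of the kinesin genes. The second cluster of Kif14 lay far below the filter, at 3.28, 3.33 and 3.38 in Rb1L/L cultures 1, 2 and 3, against 3.31, 3.35 and 3.45 in Rb1+/+ cultures 1, 2 and 3. Unlike the first cluster of Kif14, it gave no higher values in Rb1L/L. The second cluster of Kif6 had 5.94, 6.02 and 5.88 in Rb1L/L cultures, against 6.03, 6.07 and 6.09 in Rb1+/+ cultures, the same side as the first and slightly lower in each pair. For Kif1c the second cluster had 8.11, 7.86 and 7.74 in Rb1L/L cultures, against 7.93, 7.77 and 7.80 in Rb1+/+ cultures, higher in Rb1L/L in pairs 1 and 2 and lower in pair 3. The second clusters of Kif26b, Kif7 and Kif4-ps overlapped between the genotypes as the first did.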
